A study of Mus musculus with 32 samples.

Results

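The hemisphere opposite the stroke was compared between repopulated and control mice. The comparison holds 8 of the 32 libraries of the series and 8 of its 16 tissue libraries, chosen by their labels as whole-tissue slices of the contralateral hemisphere, with 1 library from each of 4 control (CTL) and 4 repopulated (BLZ945) mice, so that every spread given is one between mice. All mice were wild-type young adults of both sexes. BLZ945, a small-molecule inhibitor of the receptor CSF1R, was given by oral gavage at 200 mg per kg body weight on 7 consecutive days, and CTL mice received the vehicle. At 8 weeks after treatment a clot was formed in the middle cerebral artery of every mouse by thrombin injection, and the tissue was taken 1 day later, so that CTL and BLZ945 mice alike had a stroke in the other hemisphere and no untreated or unoperated brain enters the comparison. The CTL mice carry the codes A2, A3, A4 and B1 and the BLZ945 mice the codes C2, C3, C4 and D1, and values are given in these orders throughout.

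CSF1R is the receptor for the growth factors CSF1 and IL-34, on which microglia in the parenchyma and the macrophages at the borders of the brain depend for survival. Its inhibition depletes these cells, and after the drug is withdrawn the niches fill again, microglia largely from surviving microglia and border macrophages in part from cells that come from the bone marrow. Bone-marrow-derived macrophages in the brain are known for keeping more MHC class II and less of the homeostatic microglia programme. The comparison asks whether brain tissue without an infarct differed between the groups once the niches had refilled. Whole tissue is mostly RNA of neurons and glia, and fewer cells of a type and less RNA per cell cannot be told apart in it.

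Counts were brought to one library size and are written as CPM. Errors of levels are SDs over mice, and differences are log2 fold changes of BLZ945 over CTL. The libraries held 9401549 to 12781505 counts, at which 3 counts, the lowest level read as detection, correspond to between 0.235 and 0.319 CPM (counting error only). Mouse A3 is taken as its sample label has it, while the column names of the count table give its hemispheres the other way round. The summed level of stroke response genes was 336 CPM in the library used for A3, within the 143 to 354 CPM of the other contralateral libraries, and 988 CPM in the other library of A3, within the 621 to 1559 CPM of the other ipsilateral libraries. Results without A3 are given where they differ.

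No gene was called between the repopulated and the control contralateral tissue. Of 18967 genes tested, 0 (0%) had a Benjamini-Hochberg adjusted p under 0.05 in edgeR's quasi-likelihood test, and every adjusted p rounded to 1. An unadjusted p under 0.05 was found for 698 genes (3.68%). DESeq2 called 1 gene, Il16, and had 562 genes at an unadjusted p under 0.05. Without A3, edgeR again called 0 genes and found 583 at an unadjusted p under 0.05.

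The data bounded most differences. Of the 14226 genes with a mean of at least 1 CPM, 12697 (89.3%) had a 95% interval within a log2 fold change of 1 in either direction, and 10265 (72.2%) within 0.59, a 1.5-fold change. Among the 10131 genes with a mean of at least 10 CPM these shares were 98.5% and 92.1%, and the median half-width of the interval was 0.23 on the log2 scale. The median log2 fold change over the 14226 genes was 0, and 49.0% were positive. The levels of all 4 BLZ945 mice were above those of all 4 CTL mice for 153 of these genes (1.08%) and below for 192 (1.35%). At an unadjusted p under 0.05, 223 of them (1.57%) were higher and 308 (2.17%) lower in BLZ945 mice.

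Mice of one treatment differed from each other as much as mice of different treatments. The root mean square difference in log2 CPM between 2 libraries had a median of 0.479 over the 6 pairs of CTL mice, 0.524 over the 6 pairs of BLZ945 mice and 0.476 over the 16 pairs of a CTL and a BLZ945 mouse. The closest pairs were 0.388, 0.353 and 0.329 apart. The first principal component held 42.4% of the variance and set CTL mouse A4 and BLZ945 mice C3 and C4 apart from the other 5 mice, and the second held 15.4%.

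The widest ranges between libraries, apart from sex-linked genes, included genes that mark particular brain regions. Ttr, which encodes the thyroid hormone carrier transthyretin and marks the choroid plexus, had levels of 57.5, 2121, 0.922 and 607 CPM in CTL mice and of 2204, 0.617, 0.367 and 2628 CPM in BLZ945 mice. It was almost absent from A4, C3 and C4 and abundant in A3, C2 and D1, so that the groups overlapped across their whole range. All 17 choroid plexus genes had positive log2 fold changes, with a median of 0.60, but 0 of the 17 were called and 0 had a 95% interval within 1. The median was between 0.08 and 1.88 when 1 mouse was left out at a time. With the choroid plexus level as a covariate it was -0.23, which is no check, since that level is the mean of these same genes. Oxt, the hypothalamic hormone oxytocin, was also highest in A3, C2 and D1, and ranged between 0 and 58.2 CPM in CTL mice and between 0.103 and 92.6 CPM in BLZ945 mice.

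Markers of thalamus and hippocampus had mostly negative log2 fold changes, those of the striatum varied widely within the groups, and none was called. The summed thalamus genes reached 1358, 823, 203 and 1044 CPM in CTL mice and 815, 190, 301 and 875 CPM in BLZ945 mice. The groups overlapped, with A4 among the lowest. The median log2 fold change of the 12 thalamus genes was -0.64, or between -1.06 (without D1) and -0.32 (without C3) with 1 mouse left out, -0.36 without A2, -0.34 without C4, -0.99 without A4 and -0.97 without C2. Of these genes, 3 were lower at an unadjusted p under 0.05 (background 2.17%), of which Prkcd, a protein kinase C gene of thalamic relay neurons, had 356, 89.9, 12.2 and 286 CPM in CTL and 76.2, 17.5, 36.7 and 74.9 CPM in BLZ945 mice. The 10 hippocampus genes with at least 1 CPM had a median of -0.88, or between -1.34 (without A4) and -0.46 (without A2) with 1 mouse left out, and 4 were lower at that p. Their summed level was 763, 649, 666 and 561 CPM in CTL mice and 525, 408, 550 and 516 CPM in BLZ945 mice, with every BLZ945 mouse below every CTL mouse. In the mean of their log2 levels, which gives each gene the same weight, CTL mouse A4 (3.81) lay within the 3.57 to 4.45 of the BLZ945 mice. The striatum genes summed to between 723 and 5092 CPM in CTL mice and between 1557 and 3930 CPM in BLZ945 mice, highest in A4 and C4. How far the plane and extent of the slices set these differences was not tested.

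**Figure D1:**
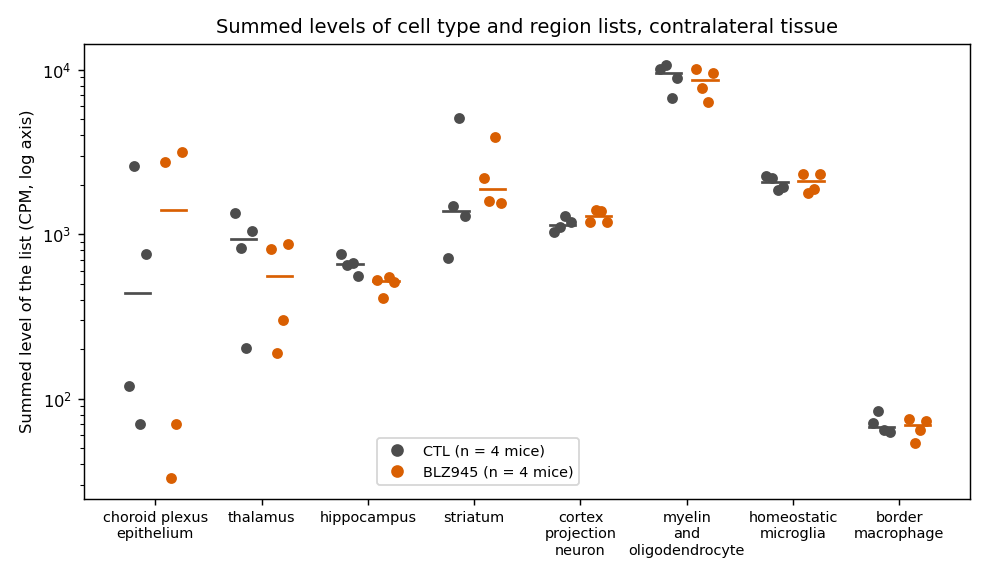
Summed CPM (y axis, log scale) of 8 lists of cell type and region genes in each contralateral library, CTL mice in grey and BLZ945 mice in orange, 4 points a group, with a bar at the median. Choroid plexus genes ranged from 33.0 to 3169 CPM, whereas homeostatic microglia genes stayed between 1783 and 2335 CPM.

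The sexes were unevenly split between the groups. Xist, the RNA of the inactive X chromosome, was at 253 CPM in CTL mouse B1 and between 278 and 395 CPM in BLZ945 mice C2, C3 and C4, and Ddx3y from the Y chromosome was between 45.9 and 56.2 CPM in the other 4 mice and at 0 in these. CTL mice were thus 3 males and 1 female and BLZ945 mice 1 male and 3 females, by expression and not by their labels. With sex as a covariate edgeR called 0 genes and found 510 at an unadjusted p under 0.05. Of the 14226 genes, 6894 (48.5%) differed in the same direction within females and within males. Each ratio within a sex sets 3 mice against 1, B1 being the only CTL female and D1 the only BLZ945 male, so it has no replicate check.

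The receptor that BLZ945 inhibits was at the same level in both groups within its error. Csf1r had 115, 116, 120 and 104 CPM in CTL mice (114 ± 6.67, SD, n = 4) and 106, 123, 116 and 99.5 CPM in BLZ945 mice (111 ± 10.3, SD, n = 4). The ranges overlapped, and the log2 fold change of -0.04 had a 95% interval from -0.22 to 0.14. Its ligands were also close, at 27.1 ± 2.45 and 29.8 ± 2.86 CPM for Csf1 and at 49.5 ± 11.9 and 49.8 ± 12.1 CPM for Il34, a ligand made mainly by neurons (SD, n = 4). Among the 11 genes of the CSF1R axis, 6 log2 fold changes were positive and 5 negative, with a median of 0.01. They ran from -0.30 for Spi1, the myeloid transcription factor PU.1, to 0.42 for Csf2rb, a receptor subunit for GM-CSF that was near 1 CPM. None was called, and 10 of the 11 had intervals within 1.

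Homeostatic microglia genes differed little between the group means. The list summed to between 1869 and 2257 CPM in CTL mice and between 1783 and 2335 CPM in BLZ945 mice, but most of this sum came from Cst3 (means of 902 and 913 CPM) and Sparc (550 and 506 CPM), which other brain cells also make. Sparc ranged from 309 to 686 CPM in CTL mice and from 185 to 793 CPM in BLZ945 mice. Of 22 genes measured, 10 were higher and 12 lower in BLZ945 mice, the median log2 fold change was -0.01, and 0 were called. All 22 had intervals within 1 and 20 within 0.59. P2ry12, a purinergic receptor that guides microglial processes, was at 25.5, 26.5, 28.8 and 24.7 CPM in CTL mice and at 21.7, 27.1, 23.1 and 21.5 CPM in BLZ945 mice. Its groups overlapped, and its log2 fold change of -0.17 had an interval from -0.40 to 0.05. Tmem119, a membrane protein of microglia, was at 28.8 ± 2.76 and 28.8 ± 4.75 CPM, and Cx3cr1, the fractalkine receptor, at 60.0 ± 4.80 and 57.7 ± 4.05 CPM (SD, n = 4). Sall1, a transcription factor of microglia that cells of bone marrow origin lack, was at 24.6 ± 4.61 CPM in CTL and 25 ± 2.47 CPM in BLZ945 mice (SD, n = 4).

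The highest log2 fold changes of the microglia list were those of Olfml3, Ctss, C1qa and C1qb. Ctss, the protease cathepsin S, had 68.2, 65.9, 76.4 and 66.3 CPM in CTL mice and 95.6, 79.6, 81.4 and 90.2 CPM in BLZ945 mice. All BLZ945 mice lay above all CTL mice, with a log2 fold change of 0.33 ± 0.08 (SE) and an unadjusted edgeR p of 0.00228, and the gene was not called. Olfml3, a secreted matrix protein of microglia, had 19.1, 20.8, 26.6 and 20.3 CPM against 33.2, 27.6, 25.6 and 29.6 CPM, which overlapped only through A4 and C4. C1qa and C1qb, subunits of the first complement component, had log2 fold changes of 0.28 (interval 0.09 to 0.47) and 0.26 (0.08 to 0.44), and C1qc, the gene of the remaining subunit, one of 0.15 (-0.03 to 0.34). C1qb was at 54.0, 50.7, 55.4 and 49.8 CPM in CTL and at 70.9, 62.5, 59.9 and 57.5 CPM in BLZ945 mice, again without overlap. In all, 4 of the 22 genes were higher at an unadjusted p under 0.05, against 1.57% of all genes, and 0 were lower.

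Pan-macrophage genes were spread over both signs. Their median log2 fold change was 0.09 over 15 genes, of which 11 were positive and 0 were called, and the list summed to between 141 and 157 CPM in CTL and between 151 and 167 CPM in BLZ945 mice. Ly86, a partner of the Toll-like receptor homologue CD180, was highest, at 9.77, 9.71, 8.91 and 7.90 CPM in CTL and 13.7, 16.2, 11.5 and 10.5 CPM in BLZ945 mice. These groups did not overlap, and its log2 ratio was 0.80 within females and 0.15 within males. Aif1, which encodes the microglial marker IBA1, was lowest with a log2 fold change of -0.43 at 2.23 ± 0.193 and 1.66 ± 0.573 CPM (SD, n = 4).

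Border macrophage genes were close to the limit of whole tissue. Only 7 of 15 had a mean of at least 1 CPM, 6 of these had negative log2 fold changes, the median was -0.02, and 0 were called. Mrc1, the mannose receptor CD206 that defines these cells, was at 3.44, 3.77, 2.76 and 2.81 CPM in CTL mice and at 3.49, 3.19, 2.93 and 2.29 CPM in BLZ945 mice. The groups overlapped, and the interval of its log2 fold change reached from -0.61 to 0.39. Cd163, a scavenger receptor for haemoglobin, was at 2.38 ± 1.26 and 2.32 ± 1.28 CPM (SD, n = 4), with an interval from -1 to 0.96, so that a change of nearly 2-fold in either direction was not detectable. Stab1, the scavenger receptor stabilin-1, had a log2 fold change of -0.26 with an interval from -0.54 to 0.01. F13a1, a transglutaminase of border macrophages, Cd38, Maf and Dab2 had log2 fold changes of -0.48, 0.04, 0 and -0.01.

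Genes of bone-marrow-derived macrophages and MHC class II were measured at low levels and with wide intervals. Of 15 genes, 10 had a mean of at least 1 CPM, 6 of these were positive, the median was 0.15, and 0 were called. Cd52, a surface glycoprotein of leukocytes, had the highest log2 fold change at 0.75 (interval -0.06 to 1.58), with 1.25, 1.67, 1.23 and 1.18 CPM in CTL and 3.81, 2.37, 1.74 and 1.19 CPM in BLZ945 mice. Its log2 ratio was 1.10 within females and -0.20 within males, and its log2 fold change was 0.47 with sex as a covariate. Cd74, the invariant chain of MHC class II, was at 3.13, 6.53, 3.48 and 2.90 CPM in CTL and at 6.45, 1.95, 4.31 and 9.53 CPM in BLZ945 mice. H2-Aa and H2-Ab1, chains of the class II molecule, had log2 fold changes of 0.42 and 0.23, and H2-Eb1 one of -0.18. Cd74 and H2-Eb1 were highest in A3 among CTL and in D1 among BLZ945 mice, both libraries rich in choroid plexus RNA, although the study's methods state that this tissue was taken out of the sectioned brains. With the choroid plexus level as a covariate the median of the list was 0.04. Without C4 the median of the list was 0.43, and without the libraries A4, C3 and C4, which hold almost no choroid plexus RNA, it was 0.69 (both settings without these libraries or with the covariate were chosen after seeing the data). H2-DMa, H2-DMb1, Ciita, Fxyd5 and Itga4 had log2 fold changes of 0.07, 0.28, -0.35, -0.17 and -0.28.

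**Figure D2:**
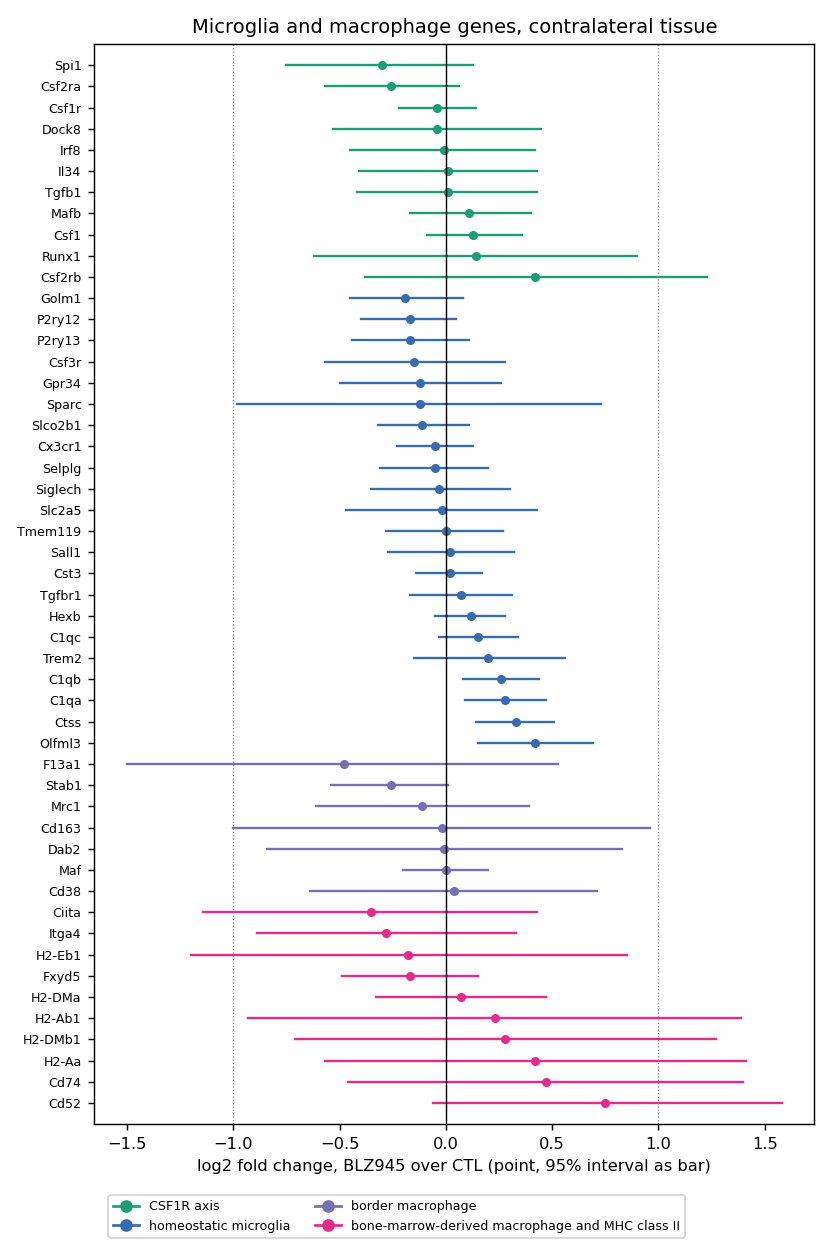
Log2 fold change of BLZ945 over CTL (x axis, point) with its 95% interval (bar) for 50 genes of the CSF1R axis, homeostatic microglia, border macrophages and bone-marrow-derived macrophages with MHC class II, 4 mice a group. Csf1r is centred at -0.04, while the intervals of Cd74 (-0.46 to 1.40) and other MHC class II genes reach beyond 1.

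The inflammatory lists showed no called gene. Complement genes had 11 of 14 positive values and a median of 0.16, with C3, the central component, at 1.72 ± 1.22 and 2.49 ± 1.79 CPM (SD, n = 4) and Itgam, a complement receptor chain, lowest at -0.25. The list summed to between 251 and 295 CPM in CTL and between 284 and 362 CPM in BLZ945 mice. Interferon-stimulated genes had a median of 0.05 over 17 genes, from -0.48 for Rsad2 (viperin) to 0.59 for Oasl2, an oligoadenylate synthetase-like gene, which had 2.89, 3.94, 2.76 and 2.81 CPM in CTL and 6.03, 3.29, 3.57 and 5.86 CPM in BLZ945 mice. Chemokines had a median of 0.07 over 9 genes, with the neuronal chemokine Cx3cl1 at 797 ± 146 and 851 ± 131 CPM (SD, n = 4). Disease-associated phagocyte genes had a median of 0.01 over 15 genes, and Apoe, the main lipid carrier of the brain, was at 1420 ± 110 and 1350 ± 211 CPM (SD, n = 4). Lysosomal genes had a median of 0.04 over 23 genes, of which all 23 had intervals within 1 and 22 within 0.59. NADPH oxidase genes had a median of 0 over 5 genes.

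Genes that respond to stroke in the lesioned hemisphere had a median of 0.14 over 13 genes here, with 9 positive and 0 called. Gfap, the intermediate filament of astrocytes, was at 299, 275, 102 and 198 CPM in CTL and at 295, 190, 187 and 267 CPM in BLZ945 mice. Reactive astrocyte genes had a median of 0.01 over 19 genes and astrocyte genes one of -0.02 over 14. Aldh1l1, a folate enzyme of astrocytes, had the highest value of the latter, at 0.26, with 73.0 ± 8.04 and 87.2 ± 6.79 CPM (SD, n = 4).

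Oligodendrocyte genes lay slightly lower in BLZ945 tissue across most of the list. Of 20 myelin and oligodendrocyte genes, 19 had negative log2 fold changes, the median was -0.20 against 0 over all genes, 4 were lower at an unadjusted p under 0.05 (Mag, Opalin, Olig1 and Myrf, against 2.17% of all genes), and 0 were called. Mbp, the gene of myelin basic protein, was at 2590 ± 524 and 2280 ± 371 CPM (SD, n = 4), and its groups overlapped. Opalin, a membrane protein of myelinating oligodendrocytes, was at 30.6, 37.8, 29.5 and 40.3 CPM in CTL and at 27.1, 22.2, 24.1 and 27.1 CPM in BLZ945 mice (log2 fold change -0.46, interval -0.72 to -0.19). It was the 1 gene of the 20 without overlap between the groups, against 1.35% of all genes with a mean of at least 1 CPM that were lower without overlap. The positive value of the list was that of Enpp2 (0.49), which the choroid plexus also makes and which had its highest levels in A3, C2 and D1. The summed level of the list was 10204, 10774, 6783 and 8996 CPM in CTL and 10128, 7716, 6428 and 9545 CPM in BLZ945 mice. It was lowest in A4, C3 and C4. The median stayed negative in every setting run, between -0.32 and -0.06.

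Oligodendrocyte precursor genes showed the same sign in 9 of 10 members, with a median of -0.17. Gpr17, a receptor of precursors that are about to differentiate, had 71.6, 54.8, 52.0 and 68.5 CPM in CTL mice and 46.5, 47.8, 40.1 and 38.9 CPM in BLZ945 mice. The groups did not overlap, the log2 fold change was -0.51 ± 0.12 (SE), and the unadjusted edgeR p was 0.00113. Neu4, a sialidase of the same stage, had 14.5, 16.8, 11.2 and 11.2 CPM against 9.73, 6.99, 9.16 and 9.25 CPM, a log2 fold change of -0.61 (interval -1 to -0.23). Pdgfra, the PDGF receptor, had -0.14 (interval -0.32 to 0.04), the proteoglycan gene Cspg4 -0.19 (-0.44 to 0.06) and Enpp6, a phosphodiesterase of newly forming oligodendrocytes, -0.22 (-0.64 to 0.20). The median of the list was between -0.23 and -0.13 in the settings run.

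Neuronal genes had mostly positive log2 fold changes, with small medians. The 20 pan-neuronal genes had a median of 0.12 with 17 positive, which was 0.03 with sex as a covariate, 0.05 without C3 and 0.06 without A2, and the 14 genes of cortical projection neurons one of 0.17 with 12 positive. Snap25, a synaptic SNARE protein, was at 2860 ± 248 and 3230 ± 423 CPM (SD, n = 4). Immediate early genes, which follow neuronal activity, had a median of 0.09 over 25 genes, with Arc at 163 ± 72.3 and 244 ± 122 CPM and Egr1 at 285 ± 89.2 and 379 ± 137 CPM (SD, n = 4).

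Vascular and connective tissue genes did not separate the groups. The median was 0.02 over 18 endothelial genes, all with intervals within 0.59, -0.08 over 9 genes of endothelial adhesion, -0.14 over 12 of pericytes and smooth muscle and -0.03 over 20 of meningeal fibroblasts and matrix. Vcam1, an adhesion molecule for leukocytes, was at 31, 38.9, 24.2 and 26.1 CPM in CTL and at 36.3, 17.8, 22.8 and 34.2 CPM in BLZ945 mice, with a log2 fold change of -0.12 (interval -0.60 to 0.37). Selp, which encodes P-selectin, had 1 read in all 8 libraries together and could not be tested. Slc2a1, the glucose transporter of the blood-brain barrier, was at 170 ± 17.7 and 166 ± 11.7 CPM (SD, n = 4).

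Genes of blood cells were few and low. Neutrophil, T and NK cell and B cell genes had 3, 3 and 2 members with a mean of at least 1 CPM, with medians of 0.02, 0.13 and 0.15, and the T and NK cell value included Cd4, which ranged from 1.41 to 47.8 CPM in CTL mice and was highest in A4 and C4, as the striatum genes were. Red blood cell genes had a median of -0.11 over 5 genes, and they summed to between 223 and 321 CPM in all mice. The medians were -0.07 over 19 heat shock and unfolded protein genes, -0.01 over 15 glucocorticoid-responsive genes, 0.07 over 17 cell cycle genes and 0.07 over 14 genes of ependyma and motile cilia. None of the genes in these lists was called.

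**Figure D3:**
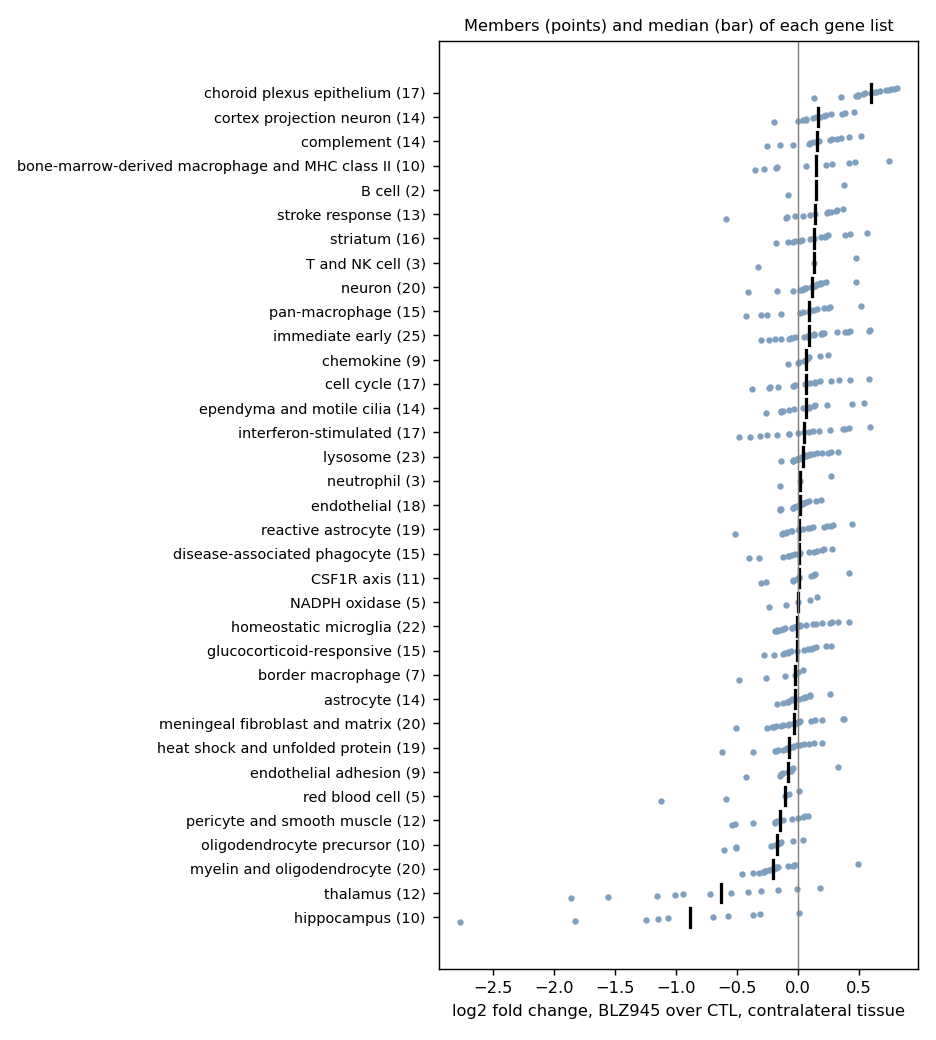
Log2 fold change of BLZ945 over CTL in contralateral tissue (x axis) for the members with a mean of at least 1 CPM (points) of 35 gene lists (y axis, number of members in parentheses), with a bar at each median. The medians of 32 lists lie between -0.20 and 0.17, and those of hippocampus (-0.88), thalamus (-0.64) and choroid plexus (0.60) lie apart.

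The genes with the smallest unadjusted p in each direction are described although they were not called, and with 14226 genes ordered by p their separation follows from how they were chosen. The smallest p belonged to Il16, which encodes the precursor of a cytokine that binds CD4 and also a neuronal scaffold protein. Il16 had 11.5, 7.12, 2.76 and 7.72 CPM in CTL mice and 2.33, 1.44, 1.56 and 2.2 CPM in BLZ945 mice. The highest BLZ945 mouse lay below the lowest CTL mouse, A4, by a small margin. The log2 fold change was -1.95 ± 0.38 (SE), the edgeR p was 0.000311 before and 1 after adjustment, and DESeq2 gave an adjusted p of 0.0228. Without A4 the value was -2.22 with an edgeR adjusted p of 0.0663, without A3 it was -1.97, and across all settings it ranged from -2.22 to -1.46.

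Il16 put the CTL mice in the same order as Prkcd of the thalamus list, which had 356, 89.9, 12.2 and 286 CPM. That order was also seen for Lct, the gene for lactase and a member of the hippocampus list. Lct had 18.5, 6.70, 1.33 and 7.17 CPM in CTL and 1.90, 1.54, 0.550 and 1.01 CPM in BLZ945 mice. Across the groups, Prkcd in BLZ945 mice C2 (76.2 CPM) and D1 (74.9 CPM) was near that of A3. Il16 was at 2.33 and 2.2 CPM in C2 and D1, against 7.12 CPM in A3. CTL mouse A4 had the lowest Prkcd and more Il16 (2.76 CPM) than every BLZ945 mouse. With the level of thalamus genes as a covariate, chosen after seeing the data, the log2 fold change of Il16 was -1.46 with an unadjusted p of 6.74e-05 and an adjusted p of 0.989 in edgeR. The part of thalamic content in the difference was not tested further.

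Of the 10 genes lower in BLZ945 mice, Lct had the largest log2 fold change, at -2.77 (interval -4.22 to -1.35), with overlapping groups. Apart from Il16 and Lct, these genes differed by less but with little spread. Nr3c2, the mineralocorticoid receptor, had 73.5, 63.7, 53.1 and 69.0 CPM in CTL and 45.4, 47.9, 49.5 and 39.9 CPM in BLZ945 mice (log2 fold change -0.51 ± 0.11, SE). Matn4, a matrilin of the extracellular matrix, had 12.2, 11.1, 11.2 and 11.6 CPM against 6.98, 8.74, 7.79 and 7.15 CPM (-0.59 ± 0.13, SE). Htr4, a serotonin receptor, had 5.08, 4.69, 5.73 and 4.72 CPM against 2.33, 1.44, 3.57 and 2.57 CPM (-1.02 ± 0.26, SE). In all 3 genes the groups were apart. The others were Gpr17, described above, Serinc5, a lipid scramblase of myelin and other membranes (-0.34), Col11a2, a fibrillar collagen chain (-0.38), Ftsj1, a methyltransferase for transfer RNA (-0.35), and Plod1, a lysyl hydroxylase for collagen (-0.43).

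Among the genes higher in BLZ945 mice, Exph5, which encodes an effector of the vesicle GTPase RAB27, had 12.1, 15.3, 13.4 and 14 CPM in CTL and 21.6, 19.4, 20.3 and 18.6 CPM in BLZ945 mice (log2 fold change 0.54 ± 0.11, SE). Glp1r, the receptor for glucagon-like peptide 1, had 2.58, 5.53, 5.12 and 3.63 CPM against 7.82, 5.96, 18 and 10.3 CPM (1.33 ± 0.35, SE), the largest of these changes but with A3 and C3 close together. Serpinb8, a protease inhibitor, had 9.93, 10.2, 10.7 and 8.71 CPM against 14.5, 17.3, 19.3 and 11.7 CPM. Its log2 ratio was 0.96 within females and 0.19 within males. Also among them were Pcdh7, a protocadherin (0.31), Scai (0.37), Rai14 (0.49), the axon guidance gene Sema3a (0.38) and the potassium channel gene Kcnh7 (0.38), besides Ctss.

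**Figure D4:**
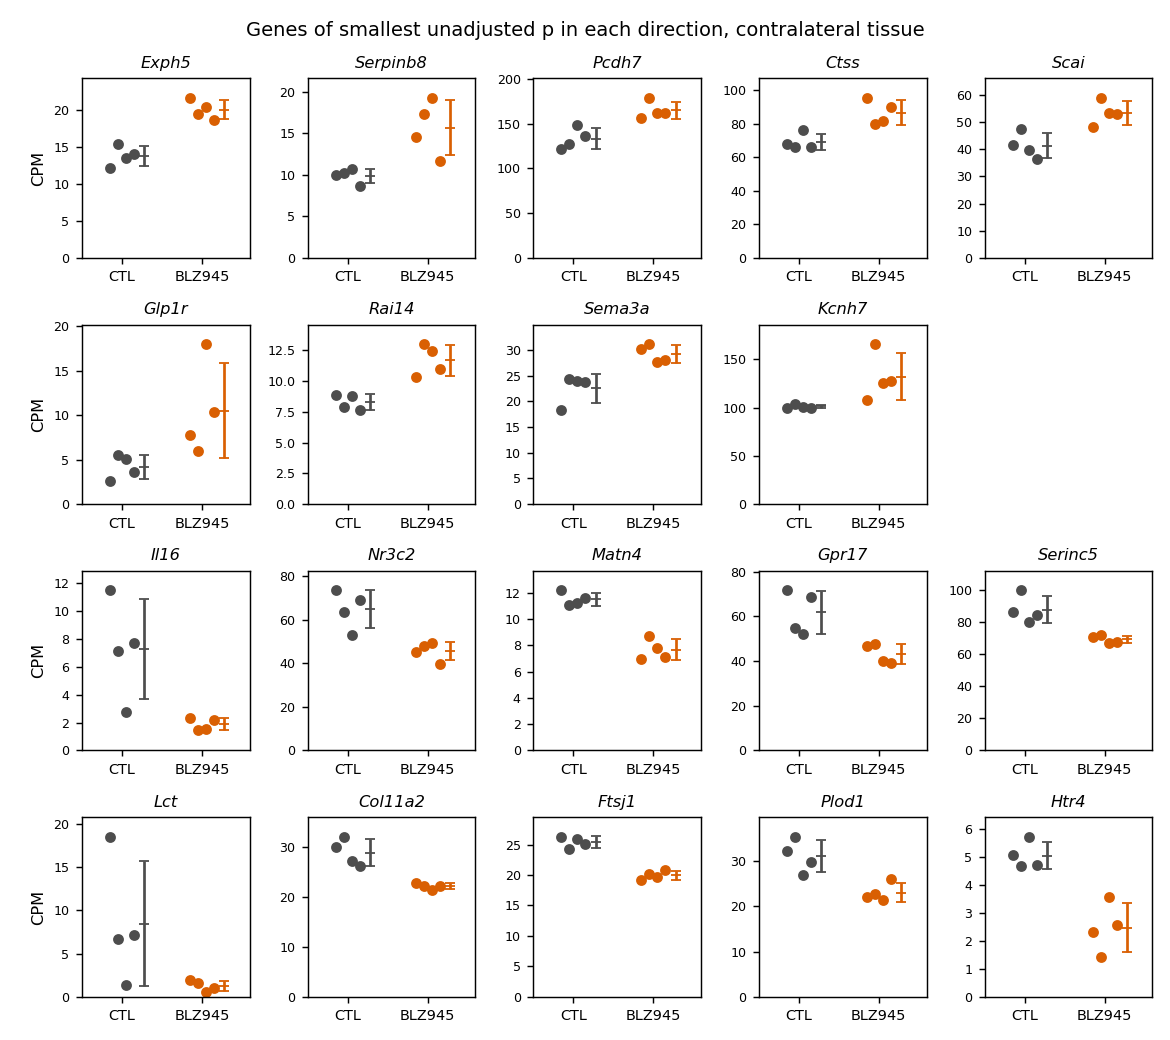
CPM (y axis, from 0) of genes with the smallest unadjusted p in each direction in the 4 CTL (grey) and 4 BLZ945 (orange) contralateral libraries, points for mice and the mean with SD beside them, the upper 2 lines of panels for genes higher and the lower 2 for genes lower in BLZ945 mice. The groups are apart in every panel shown except that of Lct, for which CTL mouse A4 had 1.33 CPM.

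The same genes are set beside the other libraries of the same mice, which are not independent of the contralateral slices. In ipsilateral tissue, where edgeR called 0 of 19211 genes (0%) between the treatments and 668 had an unadjusted p under 0.05, Il16 was at 8.43, 4.80, 1.35 and 8.23 CPM in CTL and at 1.82, 1.01, 1.27 and 0.913 CPM in BLZ945 mice (log2 fold change -2.17). There A4 lay within the BLZ945 range. Gpr17 was at 53.5, 58.0, 53.0 and 63.0 CPM against 32.1, 24.7, 25.8 and 40.2 CPM (-0.89), and Matn4 at 9.94, 10.5, 9.37 and 10.8 CPM against 7.68, 5.87, 6.24 and 6.29 CPM (-0.64). Both were again without overlap. Exph5 was at 15.4, 11.2, 21.5 and 12.2 CPM against 11.7, 19.9, 14.3 and 15 CPM, with overlapping groups and a log2 fold change of 0.02, against 0.54 contralaterally.

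In sdCAMs, the leptomeningeal and perivascular macrophages, sorted from the contralateral hemisphere, edgeR called 0 of 18461 genes (0%) and 1185 had an unadjusted p under 0.05. The study's methods mention cells of a pair of BLZ945 mice being pooled per replicate, which a figure legend states for its reporter mice. The labels of the libraries used here each carry a single mouse code. P2ry12 was at 3853 CPM in CTL and 1769 CPM in BLZ945 sdCAMs on average and H2-Aa at 710 and 1393 CPM. Their log2 fold changes were -1.12 and 0.97, with an edgeR adjusted p of 0.687 for each, against -0.17 and 0.42 in contralateral tissue. The microglia gene Tmem119 was at 2392 and 1469 CPM in these sorted cells, and Mrc1 at 992 and 698 CPM. How far microglia among the sorted cells set the P2ry12 values was not tested. Csf1r was at 5887, 3346, 4508 and 6441 CPM in CTL and at 2847, 3936, 1776 and 4521 CPM in BLZ945 sdCAMs, compared with 99.5 to 123 CPM in tissue. Il16 was at 123, 96.7, 109 and 117 CPM in CTL and at 41.8, 80.2, 55.8 and 102 CPM in BLZ945 sdCAMs (-0.67), where D1 lay within the CTL range.

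Whether the treatment acted differently in the 2 hemispheres was tested as an interaction over the 16 tissue libraries. Of 18968 genes, edgeR called 0 (0%), with 2.04% of the genes at an unadjusted p under 0.05, and DESeq2 called 0 with 240 genes at that p. With the mouse as a factor edgeR called 0 with 451. For the 20 genes with the smallest contralateral p, values are from the edgeR fit without the mouse as a factor, which ignores the pairing. Each had an adjusted p of 1 for the interaction, with unadjusted values from 0.062 for Exph5 to 0.988 for Col11a2. These genes were chosen on contralateral values that also enter the interaction.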

How the data were processed

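Bulk RNA-seq of whole-tissue slices was read from the deposited table of raw counts. Per the labels and the methods, the authors sequenced single reads from Nextera XT libraries, which do not mark strand, aligned them with STAR 2.7.11a, counted reads on genes with featureCounts 2.0.8 and deposited unnormalized counts of 33280 genes. The methods name mm10 and GRCm39 without saying which of them was used for these libraries, so genes are named by symbol. Each mouse gave 1 library a hemisphere, and all libraries carry a single batch label, which leaves no second batch to compare within. Libraries of a group differed by 4.49 to 21.2 times the sampling variance and were not copies of each other.

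The authors' minimum was applied, which leaves out any gene whose counts over the 8 libraries add up to less than 4. BLZ945 and CTL were compared with edgeR 4.0.16 (quasi-likelihood test, TMM, two-sided, prior count of 0.125, Benjamini-Hochberg adjustment over 18967 genes). The code was also run on simulated counts with a single dispersion for all genes, a simpler setting than these libraries, so that run does not check the test for them. Ipsilateral tissue and contralateral sdCAMs were fitted in the same way. The authors used DESeq2. DESeq2 1.42.0 and limma 3.58.1 served in alternatives, with other scalings, filters, covariates and omitted mice.

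Genes named were the 10 of smallest unadjusted p in each direction, since edgeR called none (DESeq2 called 1, Il16), the macrophage and CSF1R lists, and from each other list the 2 most abundant genes and those of highest and lowest fold change, all with a mean of at least 1 CPM, plus Vcam1, Selp and sex-linked genes. Others were named after their values were seen, and some genes that the rule names are not reported here. The comparison, the 37 lists and the rule were chosen with earlier results of these data known. Of 583 listed symbols, 20 were not in the table, among them those of the mitochondrial list, which was not analysed here.

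Within-sex log2 ratios used group means plus 0.1 CPM. In every mouse, the departures of its 2 hemispheres from their groups' means correlated positively (r of 0.11 to 0.445 across genes), so tissue libraries are paired by mouse, whereas the numbers in the mouse codes do not pair CTL with BLZ945 mice.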

Additional observations from a re-analysis of the deposited data

Results flagged for a closer look

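One mouse stood far from the other 3 of its group, by Dixon's ratio of gap to range above the 95% critical value, in 9 of 168 sets of 4 values checked (5.36%), close to the 1 in 20 that chance gives. Among CTL mice, A3 was high for Cd74 (6.53 CPM, others 2.90 to 3.48), Cd52 (1.67, others 1.18 to 1.25) and Oasl2 (3.94, others 2.76 to 2.89), A2 was low for Sema3a (18.3, others 23.7 to 24.3), and B1 was low for the summed oligodendrocyte precursor genes (535, others at least 589). Among BLZ945 mice, C4 was low for Csf1 (25.6, others 30.9 to 31.8) and high for Cd163 (4.22, others 1.48 to 1.92), C2 was high for C1qc (67.6, others 56.4 to 57.8), and C3 was high for the summed B cell genes (61.7, others 41.6 to 43.1). The Cd74 level of A3 stood beside 2121 CPM of Ttr in that library. No gene passed the test of the interaction, which asks whether the treatment difference differed between hemispheres.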

How the results depend on the processing

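EdgeR called 0 genes between BLZ945 and CTL in every setting run, with between 510 (sex as a covariate) and 1160 genes (choroid plexus level as a covariate) at an unadjusted p under 0.05. The replicate block for the mouse (limma, 16 tissue libraries) gave 0 with 612 such genes, and the replicate block for the number in the mouse code, which does not pair the mice, gave 0 with 718. The interaction stayed at 0 genes, with and without each mouse. DESeq2 called 1 gene between the treatments. The cause of that difference was not tested.

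Genes without overlap between the groups came to 338 higher and 405 lower after adjustment for sex. The sex effect was fitted on these same libraries with treatment kept in, which narrows the spread within groups by construction, so this rise says nothing on sex. With 3 mice left in 1 group, the counts were between 261 (without C4) and 447 (without A4) higher and between 320 (without C4) and 586 (without A4) lower, a rise that fewer samples bring by construction. With library 19 for A3, the lesioned hemisphere by its label, list medians were -0.83 for stroke response, -0.32 for reactive astrocytes, -0.23 for the CSF1R axis, -0.19 for pan-macrophage genes, -0.13 for NADPH oxidase and 0.06 for neurons. With sex as a covariate they were 0.05 for microglia and 0.03 for neurons. Without A4, C3 and C4 they were 0.69 for bone-marrow-derived macrophages and MHC class II, 0.30 for interferon-stimulated, -0.08 for CSF1R axis, 0.07 for neuronal, 0.01 for pericyte and -0.14 for cell cycle genes. The neuronal median was 0.06 with sex and choroid plexus level and 0.06 with thalamus level as covariates. Leaving out 1 mouse gave 0.05 to 0.14 for neurons, 0.09 to 0.33 for cortex, 0.04 to 0.17 for pan-macrophage genes and -0.02 to 0.43 for bone-marrow-derived macrophages and MHC class II. The omission of A4, C3 and C4 and the choroid plexus and thalamus covariates were chosen after seeing the data. Of 3077 alternative values for 181 named genes, 3014 moved by less than the spread and 0 reversed. The depth limits genes near 1 CPM, such as those of border macrophages.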
